A study of Homo sapiens with 6 samples.

Results

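The genes described here are 35 genes of glycolysis and of the response to low oxygen, chosen by name as a module. They comprise 3 transporters of glucose and lactate, 16 glycolytic enzymes, 3 regulators of glycolysis, the hypoxia-inducible factor subunit HIF1A with 2 prolyl hydroxylases that control it, and 10 other targets of hypoxia-inducible factor (HIF). Where classes are compared below, these 10 are called the HIF targets, although HIF also raises genes of glycolysis. A member was kept for testing where a value was listed in all 6 libraries, which held for 32 of the 35, among 17388 such genes in the series. The 32 were all among the 13511 genes tested. ENO2, ADM and EGLN3 lacked a value in 1 or more libraries and are given by their values alone.

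RNA was sequenced from THP-1 cells, a human line derived from an acute monocytic leukaemia that often stands in for blood monocytes. One arm received recombinant human IL-6 (interleukin-6) and was collected after 6, 24 and 48 h, and control THP-1 cells were collected at the same 3 times. Each of these 6 conditions had 1 library, and neither the IL-6 dose, the oxygen level, the medium changes nor what the controls received is given in the sources used here. The study asked which transcripts IL-6 changes in these cells. The labels do not say whether the 6 libraries stem from independent cultures, and the p-values below therefore reflect only how these libraries spread. In the tests of IL-6 and of culture time, a change of the IL-6 difference with time counts as error. The culture-time tests take the IL-6 and control libraries of a time point as its 2 libraries.

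Glycolysis breaks glucose down to pyruvate in the cytosol, and lactate dehydrogenase turns that pyruvate into lactate, which leaves the cell through a monocarboxylate transporter. HIF is a transcription factor whose alpha subunit is hydroxylated by prolyl hydroxylases and degraded when oxygen is plentiful. When oxygen falls, the subunit accumulates and binds the core motif RCGTG, where R is A or G, near its targets. It raises genes of glucose uptake, glycolysis, mitophagy, collagen hydroxylation and vessel growth. HIF1A is regulated largely at the protein level, which RNA-seq does not measure. Activated monocytes and macrophages are known for high glycolysis and for HIF activity in normal oxygen.

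The ACGTG form of this core motif was searched on both strands in the 250 bases before each annotated start of the members. The GCGTG form was not searched. Shown here are 5 windows whose genes had wide or, for LDHA, narrow time courses. Capitals mark a match of ACGTG or of its reverse complement CACGT, and CACGTG counts as 1 match on each strand. The sequences are from RefSeq on GRCh38.p14, written 5′ to 3′ on the gene's strand. P4HA1 (chr10:73096867-73097116, minus strand) held 1 match, BNIP3 (chr10:131981924-131982173, minus strand) 2, ALDOC (chr17:28576896-28577145, minus strand) 3 and PFKFB4 (chr3:48556804-48557053, minus strand) 0. One of the LDHA windows (chr11:18394313-18394562, plus strand) held 5.
P4HA1: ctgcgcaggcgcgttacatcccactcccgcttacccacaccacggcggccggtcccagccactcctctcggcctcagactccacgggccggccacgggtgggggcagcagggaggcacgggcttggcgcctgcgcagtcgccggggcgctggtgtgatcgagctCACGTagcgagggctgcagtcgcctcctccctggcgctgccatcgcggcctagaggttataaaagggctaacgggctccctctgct
BNIP3: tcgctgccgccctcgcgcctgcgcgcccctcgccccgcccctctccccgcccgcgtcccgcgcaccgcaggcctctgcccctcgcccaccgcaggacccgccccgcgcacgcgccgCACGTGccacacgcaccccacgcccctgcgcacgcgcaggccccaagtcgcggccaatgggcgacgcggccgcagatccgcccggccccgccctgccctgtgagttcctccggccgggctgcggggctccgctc
ALDOC: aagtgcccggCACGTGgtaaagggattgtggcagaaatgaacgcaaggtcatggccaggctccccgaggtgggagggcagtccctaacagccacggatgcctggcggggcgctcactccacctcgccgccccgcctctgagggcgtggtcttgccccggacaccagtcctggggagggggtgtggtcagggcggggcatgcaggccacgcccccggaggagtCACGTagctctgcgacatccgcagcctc
PFKFB4: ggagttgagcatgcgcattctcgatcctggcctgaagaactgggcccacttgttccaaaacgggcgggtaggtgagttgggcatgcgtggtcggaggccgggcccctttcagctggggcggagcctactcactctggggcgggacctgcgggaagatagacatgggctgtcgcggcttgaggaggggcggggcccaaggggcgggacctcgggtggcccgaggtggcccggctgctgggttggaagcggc
LDHA: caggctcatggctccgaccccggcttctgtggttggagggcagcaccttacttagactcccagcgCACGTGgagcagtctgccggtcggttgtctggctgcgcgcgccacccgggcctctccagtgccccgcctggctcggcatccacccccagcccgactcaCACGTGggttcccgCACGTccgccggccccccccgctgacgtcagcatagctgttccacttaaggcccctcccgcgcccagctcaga
PFKFB4 had no match to ACGTG in this window, although the GCGTG form, not counted here, occurs in it. Its 24 h minus 6 h difference was the largest of the 32 genes and did not pass (limma adjusted p = 0.387). LDHA, with 5 matches in the window shown, had a small difference. Any link between matches and time courses was not tested. The table of promoters held 31 of the 35 members and not SLC2A3, VEGFA, NDRG1 or BNIP3L. A match in at least 1 window was found in 19 of the 31, beside 21.7% of all 27305 genes in the table, and in 22 of the members' 61 windows, beside 18.5% of all 35116 windows. Of the 6 members in the table whose expression passed the test at 24 h against 6 h, 4 had a match, and of the other 25 members 15 did. A match describes the letters in the window and is not evidence of binding.

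The deposited values are log2 values that the authors had centred on each gene, so that a gene's values average 0 over the libraries, a value says how a library stands against that gene's own mean, and a difference of 1 is 2-fold. Levels between genes cannot be compared on this scale. Read depth is unknown. The IL-6 libraries of 6, 24 and 48 h listed values for 22333, 22733 and 22209 genes, against 22000, 23108 and 22472 in the controls. The median of the genes tested lay between −0.05 and 0.09 in each library. All 12 monocyte and THP-1 markers examined, CD14 and LYZ among them, had values in the 6 libraries and were tested. Of 7 T and NK cell markers none reached the level filter and CD3E and CD2 had no value in any library. Among 7 markers of epithelium and fibroblasts KRT8 alone reached it, and among 6 of red cells and platelets none did.

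**Figure D1:**
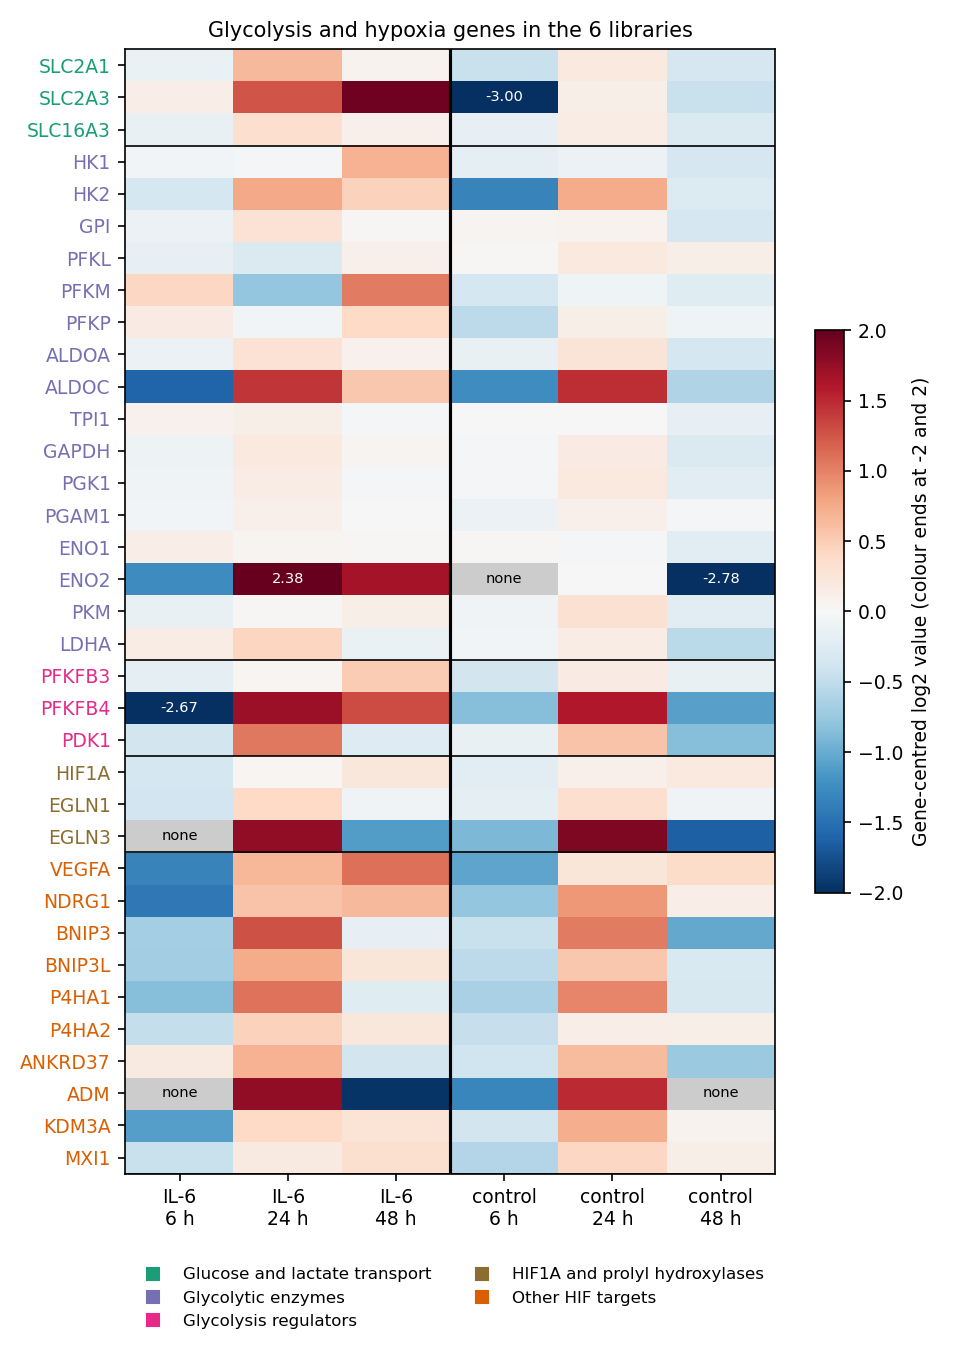
Gene-centred log2 value of each of the 35 genes (rows, coloured by role) in the 6 libraries (columns, IL-6 left of control, 1 library each); grey cells have no value, and values beyond the ends of the colour scale at −2 and 2 are written in. The 24 h columns are the reddest for most HIF targets in both arms, whereas rows of housekeeping enzymes such as TPI1, PGAM1 and ENO1 stay near 0; SLC2A3 is lowest in the control library of 6 h at −3.002.

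The main pattern in these genes was with time in culture, in both arms. Between 6 and 24 h, 7 of the 9 tested HIF targets rose, among them P4HA1, BNIP3, VEGFA and NDRG1, each by more than 2-fold in both arms. Of the enzymes of the glycolytic chain 1 of 15 rose, ALDOC, and both glucose transporters, SLC2A1 and SLC2A3, rose. By 48 h P4HA1 and BNIP3 had fallen from their 24 h values, while VEGFA and NDRG1 passed as higher at 48 h than at 6 h. P4HA1 too stood above its 6 h value at 48 h, by 0.61 with IL-6 and 0.32 in the controls, without passing. For BNIP3 this difference was 0.51 with IL-6 and −0.57 in the controls. In RNA from whole cultures, fewer cells of a type and less RNA per cell cannot be told apart. In all, 10 of the 32 genes rose and 0 fell at 24 h against 6 h by limma, fitted on time and agent. The threshold was a Benjamini-Hochberg adjusted p under 0.05 over all genes tested. At this threshold 1.66% of all genes tested rose and 0.289% fell. At an unadjusted p under 0.05, 16 of the 32 rose and 0 fell, and the share of all genes there is not given. The median difference of the 32 genes was 0.53, against 0.11 for all genes tested, and 30 of the 32 differences were positive, against 61.9% of all genes. Relative to that median of all genes the 10 rises lay between 0.60 (SLC2A1) and 2.77 (ALDOC), while HK1, PFKL, TPI1, ENO1 and PFKM lay below it. Of the 12 monocyte and THP-1 markers 0 passed at 24 h against 6 h. LYZ, the lysozyme gene, had values of 0.70, 0.18 and −1.27 at 6, 24 and 48 h with IL-6, against 0.84, 0.31 and −0.75 in the controls. It was the 1 marker of the 12 that passed in the later comparisons, and it fell at 48 h against 24 h (−1.25 ± 0.14, limma adjusted p = 0.0101) and at 48 h against 6 h (−1.78 ± 0.14, limma adjusted p = 0.000553). The part of these markers in the time courses of the module was not tested.

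These calls rest on few libraries. Without the control library of 24 h 1 gene passed and without the IL-6 library of 24 h 2 passed, P4HA1 in both cases and SLC2A3 without the IL-6 library; leaving out either 48 h library raised the count to 13. With the libraries set to equal medians, 5 genes passed (P4HA1, BNIP3L, VEGFA, NDRG1 and BNIP3), and with no variance trend in the test 0 passed, with 16 at an unadjusted p under 0.05. How many of all genes passed in each alternative is not given here. The counts therefore do not tell a change in the module from a change in all genes. The groups did not overlap, both 24 h libraries standing above both 6 h libraries, for 25 of the 32 genes, beside 31.3% of all genes tested, and 0 genes were apart the other way, beside 15.7%.

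HIF1A, the oxygen-regulated subunit, had values of −0.35, 0.04 and 0.23 at 6, 24 and 48 h with IL-6, against −0.22, 0.11 and 0.19 in the controls. Its lowest values were those of the 6 h libraries in both arms, and its 24 h minus 6 h difference of 0.36 ± 0.16 (limma SE, 2 libraries at each time) did not pass (limma adjusted p = 0.286). EGLN1, which encodes the main prolyl hydroxylase that marks HIF1A for degradation, stood between −0.39 and 0.39 in the IL-6 libraries and between −0.20 and 0.33 in the controls, highest at 24 h in both arms, with a 24 h minus 6 h difference of 0.66 ± 0.15 (adjusted p = 0.0599). EGLN3, a prolyl hydroxylase that is itself a HIF target, had no value in the IL-6 library of 6 h, then 1.78 at 24 h and −1.11 at 48 h, against −0.90, 1.86 and −1.63 in the controls at 6, 24 and 48 h. Where it was listed, EGLN3 was highest at 24 h in both arms.

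Among the other HIF targets, P4HA1 (chr10:73007217-73096974 on GRCh38, as are the positions below; protein-coding, like all genes named with a position), whose product is the catalytic subunit of collagen prolyl 4-hydroxylase, had the smallest p-value at 24 h. Its values were −0.85, 1.09 and −0.24 at 6, 24 and 48 h with IL-6, against −0.64, 0.97 and −0.32 in the controls. Both 24 h libraries stood near 1 and the other 4 libraries below 0, with the arms close to each other at each time. P4HA1 rose by 1.77 ± 0.17 at 24 h against 6 h (3.42-fold, limma adjusted p = 0.00162) and fell at 48 h against 24 h, with a difference of −1.31 ± 0.17 (adjusted p = 0.0232). It passed at 24 h against 6 h without any one of the 6 libraries. BNIP3 (chr10:131967684-131981967), a mitochondrial protein gene that acts in mitophagy, had values of −0.68, 1.27 and −0.16 at 6, 24 and 48 h with IL-6, against −0.45, 1.04 and −1.02 in the controls. The groups did not overlap between 24 h and either other time, and at 48 h the control library was the lowest of the 6. BNIP3 rose by 1.72 ± 0.23 at 24 h (adjusted p = 0.0114) and fell at 48 h against 24 h, with a difference of −1.75 ± 0.23 (adjusted p = 0.0232).

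BNIP3L, the related mitophagy receptor gene also called NIX, had values of −0.70, 0.74 and 0.24 at 6, 24 and 48 h with IL-6, against −0.53, 0.54 and −0.30 in the controls, and rose by 1.25 ± 0.17 (adjusted p = 0.00583). Its values were highest at 24 h in both arms. VEGFA (chr6:43770184-43786487), the vascular endothelial growth factor gene, stood at −1.33, 0.67 and 1.10 at 6, 24 and 48 h with IL-6, against −1.06, 0.25 and 0.37 in the controls. In both arms VEGFA was lowest at 6 h and had its highest value at 48 h, with the IL-6 library of 48 h highest of all. It rose by 1.65 ± 0.22 at 24 h against 6 h (adjusted p = 0.00712) and by 1.93 ± 0.22 at 48 h against 6 h (adjusted p = 0.00327). NDRG1, a stress-responsive gene raised by hypoxia in many cells, had values of −1.43, 0.57 and 0.65 at 6, 24 and 48 h with IL-6, against −0.78, 0.86 and 0.13 in the controls. Both 6 h libraries were the lowest, and NDRG1 rose by 1.82 ± 0.27 at 24 h against 6 h (adjusted p = 0.00939) and by 1.497 ± 0.27 at 48 h against 6 h (adjusted p = 0.0176).

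KDM3A, a histone H3 lysine 9 demethylase gene, had values of −1.11, 0.40 and 0.27 at 6, 24 and 48 h with IL-6, against −0.37, 0.73 and 0.07 in the controls. It rose by 1.30 ± 0.25 at 24 h against 6 h (adjusted p = 0.033), and without the IL-6 library of 6 h, the lowest of the 6, the difference was 0.97 (adjusted p = 0.239, within a range of 0.00771 to 0.243 over all alternatives). MXI1, which encodes an antagonist of MYC, stood at −0.45, 0.18 and 0.32 at 6, 24 and 48 h with IL-6, against −0.59, 0.42 and 0.11 in the controls. It rose by 0.82 ± 0.17 at 24 h (adjusted p = 0.0473) and by 0.73 ± 0.17 at 48 h against 6 h (adjusted p = 0.0477); without either 6 h library neither call held (adjusted p between 0.12 and 0.225), the first was also lost without either 24 h library (0.0836 and 0.329), and the second without the IL-6 library of 48 h (0.329). ANKRD37, a small ankyrin repeat gene, had values of 0.18, 0.70 and −0.38 at 6, 24 and 48 h with IL-6, against −0.39, 0.63 and −0.74 in the controls. ANKRD37 was highest at 24 h and lowest at 48 h in both arms, and neither difference passed (0.77 ± 0.28 at 24 h against 6 h, adjusted p = 0.196, and −1.22 ± 0.28 at 48 h against 24 h, adjusted p = 0.115). P4HA2, another collagen prolyl hydroxylase subunit gene, ranged from −0.47 to 0.46 in the IL-6 libraries and from −0.46 to 0.13 in the controls, and its difference of 0.76 ± 0.25 at 24 h did not pass (adjusted p = 0.155). ADM, which encodes the vasodilator peptide adrenomedullin, had no value in the IL-6 library of 6 h, then 1.78 and −1.96 at 24 and 48 h, against −1.31 and 1.49 at 6 and 24 h and no value at 48 h in the controls.

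Leaving out either 24 h library left BNIP3, BNIP3L, VEGFA, NDRG1, KDM3A and ALDOC past no threshold at 24 h against 6 h, with differences between 1.25 and 3.09 and adjusted p-values between 0.0836 and 0.364. With the other 4 libraries left out in turn, BNIP3, BNIP3L, VEGFA, NDRG1 and ALDOC passed each time. The falls of P4HA1 and BNIP3 at 48 h were past the threshold without any 6 h or 48 h library and lost without either 24 h library, with adjusted p-values between 0.0933 and 0.444. VEGFA passed at 48 h against 6 h without any one library, and NDRG1 was lost there without the IL-6 library of 6 h (difference 1.11, adjusted p = 0.118) or that of 48 h (0.998, adjusted p = 0.166), with a range of 0.00129 to 0.227 over all alternatives.

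The glucose transporters rose, but with different shapes. SLC2A1, the basal glucose transporter GLUT1, had values of −0.13, 0.64 and 0.07 at 6, 24 and 48 h with IL-6, against −0.44, 0.20 and −0.34 in the controls. It was highest at 24 h in both arms and rose by 0.70 ± 0.13 at 24 h against 6 h (adjusted p = 0.0229); without any one of the 4 libraries of 6 and 24 h the adjusted p lay between 0.0955 and 0.243. SLC2A3 (chr12:7919230-7936187), the high-affinity transporter GLUT3, stood at 0.13, 1.25 and 1.95 at 6, 24 and 48 h with IL-6, against −3.002, 0.12 and −0.44 in the controls. The IL-6 library of 48 h was its highest and the control library of 6 h its lowest, the widest range of the 32 genes. It rose by 2.12 ± 0.42 at 24 h (adjusted p = 0.0439) and by 2.19 ± 0.42 at 48 h against 6 h (adjusted p = 0.0268), although the groups overlapped, with the IL-6 library of 6 h above the controls of 24 and 48 h. Without the control library of 6 h these differences were 1.44 (adjusted p = 0.119) and 1.51 (adjusted p = 0.0671), and without the control library of 24 h the first was 1.31 (adjusted p = 0.281). The second was also lost without either 48 h library (adjusted p = 0.234 without that of IL-6 and 0.0593 without the control). Over all alternatives the adjusted p lay between 0.00106 and 0.281 for the first and between 0.000793 and 0.234 for the second. SLC16A3, the lactate exporter MCT4, lay between −0.14 and 0.34 in the IL-6 libraries and between −0.29 and 0.15 in the controls and did not pass at 24 h (0.39 ± 0.20, adjusted p = 0.348).

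**Figure D2:**
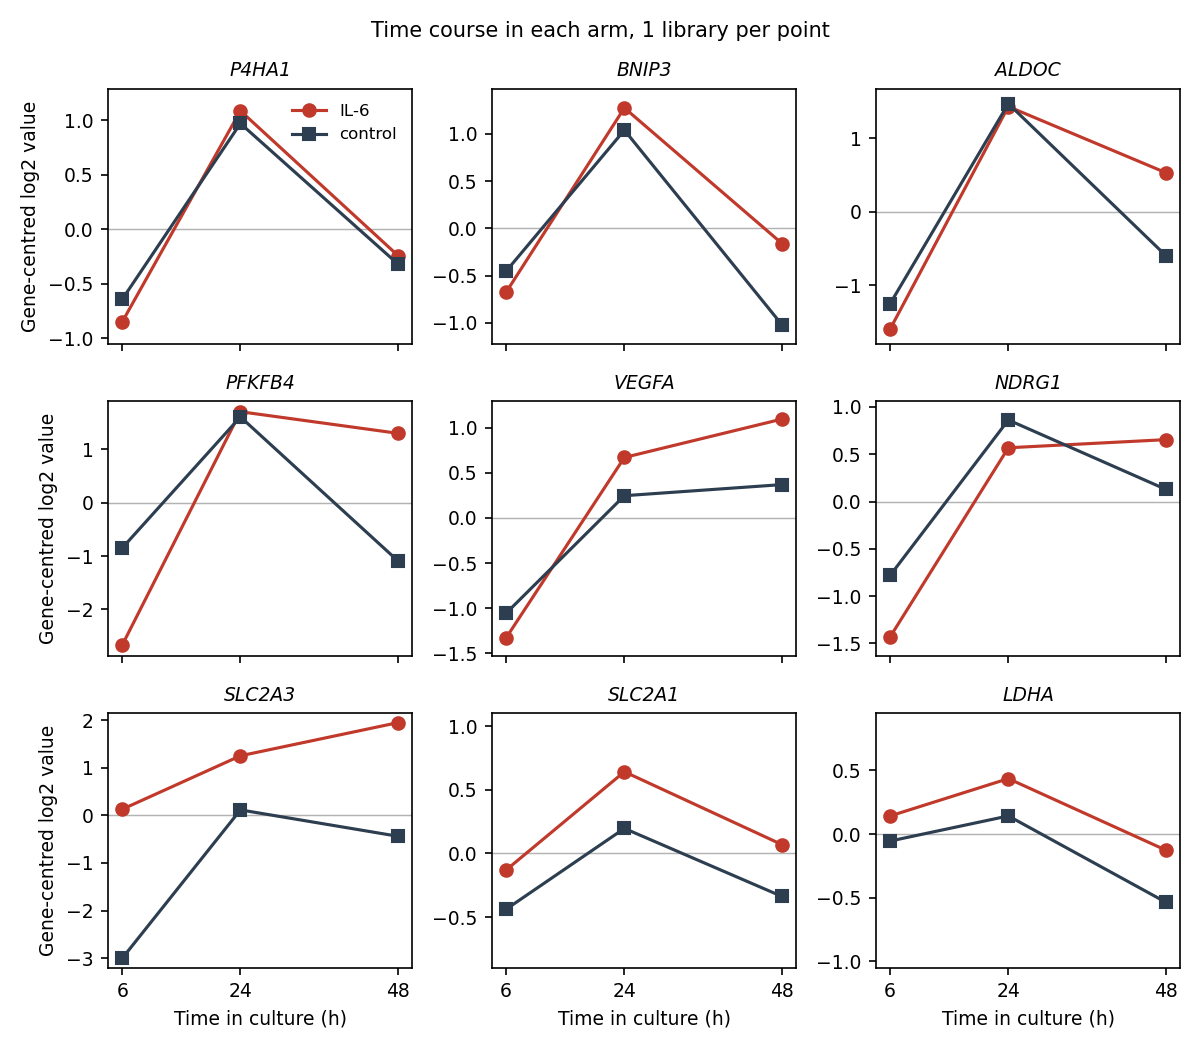
Gene-centred log2 value (vertical axis) by hours in culture (horizontal axis) for 9 genes, with circles for the IL-6 library and squares for the control library, 1 library per point and no error bar. The arms of P4HA1 almost coincide at each time, ALDOC and PFKFB4 part at 48 h, and SLC2A3 is higher with IL-6 at the 3 times.

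Most enzymes of the glycolytic chain varied little. ALDOC (chr17:28573115-28576948), the brain-type aldolase, was the exception that passed, with values of −1.59, 1.43 and 0.53 at 6, 24 and 48 h with IL-6, against −1.25, 1.47 and −0.60 in the controls. Both 6 h libraries were below −1 and both 24 h libraries above 1. It rose by 2.88 ± 0.37 at 24 h against 6 h (adjusted p = 0.0398). HK2, the inducible hexokinase that takes glucose into the pathway, stood at −0.35, 0.75 and 0.47 at 6, 24 and 48 h with IL-6, against −1.33, 0.74 and −0.27 in the controls, and its difference of 1.59 ± 0.36 did not pass (adjusted p = 0.058) although it exceeded 2-fold in both arms. HK1, the constitutive hexokinase, had values of −0.06, −0.02 and 0.70 at 6, 24 and 48 h with IL-6, against −0.18, −0.11 and −0.33 in the controls. The IL-6 library of 48 h stood apart from the other 5, and the 24 h minus 6 h difference was 0.05 ± 0.27 (adjusted p = 0.949). PFKM, the muscle-type phosphofructokinase, had values of 0.41, −0.77 and 1.03 at 6, 24 and 48 h with IL-6, against −0.36, −0.09 and −0.24 in the controls, with the IL-6 arm lowest at 24 h and the control arm highest then, and a difference of −0.46 ± 0.53 (adjusted p = 0.702).

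LDHA, which makes lactate from pyruvate, had values of 0.14, 0.43 and −0.13 at 6, 24 and 48 h with IL-6, against −0.06, 0.14 and −0.54 in the controls. It was highest at 24 h and lowest at 48 h in both arms, within a range of less than 2-fold, and neither the difference at 24 h (0.24 ± 0.13, adjusted p = 0.363) nor that at 48 h against 24 h (−0.62 ± 0.13, adjusted p = 0.0874) passed. PGK1, a phosphoglycerate kinase that yields ATP, stood at −0.07, 0.16 and −0.03 at 6, 24 and 48 h with IL-6, against −0.04, 0.20 and −0.22 in the controls, and its 24 h minus 6 h difference was 0.23 ± 0.13 (adjusted p = 0.397). The other enzymes with 6 values were GPI, PFKL, PFKP, ALDOA, TPI1, GAPDH, PGAM1, ENO1 and PKM, whose 24 h minus 6 h differences ran from −0.07 in ENO1 to 0.41 in ALDOA, none past the threshold. ENO2, the neuronal-type enolase and a HIF target, was not tested. Its values were −1.26, 2.38 and 1.66 at 6, 24 and 48 h with IL-6, against −0.01 at 24 h and −2.78 at 48 h in the controls, with none listed at 6 h.

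None of the 3 regulators passed at 24 h against 6 h by limma, and 0 of 3 did so in either direction at 48 h against 24 h. PFKFB4 (chr3:48517684-48562015), whose enzyme sets the level of the activator of phosphofructokinase, had values of −2.67, 1.71 and 1.30 at 6, 24 and 48 h with IL-6, against −0.85, 1.61 and −1.09 in the controls. Both 24 h libraries were near the same value, while the arms were far apart at 6 h and at 48 h in opposite directions. Its 24 h minus 6 h difference of 3.42 ± 1.34 was the largest of the 32 genes and did not pass (adjusted p = 0.387). PDK1, the pyruvate dehydrogenase kinase that keeps pyruvate out of mitochondrial oxidation, had values of −0.37, 1.05 and −0.26 at 6, 24 and 48 h with IL-6, against −0.14, 0.58 and −0.85 in the controls. It was highest at 24 h in both arms, with differences of 1.07 ± 0.29 at 24 h against 6 h (adjusted p = 0.0918) and −1.37 ± 0.29 at 48 h against 24 h (adjusted p = 0.0874). PFKFB3, the related bifunctional enzyme, lay between −0.19 and 0.51 in the IL-6 libraries and between −0.37 and 0.17 in the controls.

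Set side by side, the other HIF targets had larger differences with time than most enzymes. Genes of glycolysis can be HIF targets too, so this does not compare targets with genes that are not targets. At 24 h against 6 h the median difference was 1.30 over the 9 HIF targets tested and 0.22 over the 15 enzymes, beside 0.11 over all genes tested. The distance of 1.09 between the medians of these classes is a description and was not tested. Asking for a mean level of at least 10 left P4HA2, ANKRD37, HK2 and PFKM out of these classes, and the distance over the remaining genes was 1.44. The smallest difference among the HIF targets, 0.76 in P4HA2, exceeded that of each enzyme but ALDOC and HK2. At 48 h against 24 h the medians were −0.39 for HIF targets and −0.22 for enzymes, beside −0.03 for all genes, with 2 of 9 HIF targets and 0 of 15 enzymes past the threshold, where 0.422% of all genes fell and 0.104% rose. At 48 h against 6 h the medians were 0.64 and 0.05, beside 0.07 for all genes, with 3 of 9 HIF targets (VEGFA, NDRG1 and MXI1), 0 of 15 enzymes and 1 of 3 transporters (SLC2A3) risen, where 2.55% of all genes rose and 1.44% fell. In the opposite directions, 0 of the 32 genes rose at 48 h against 24 h and 0 fell at 48 h against 6 h by limma (0 and 1 at an unadjusted p under 0.05). The 2 falls at 48 h against 24 h became 4 without either 6 h library or without the IL-6 library of 48 h, and 0 without either 24 h library. The 4 rises at 48 h against 6 h became 7 without the control library of 48 h, 2 without the IL-6 library of 6 h and 1, VEGFA, without the IL-6 library of 48 h.

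**Figure D3:**
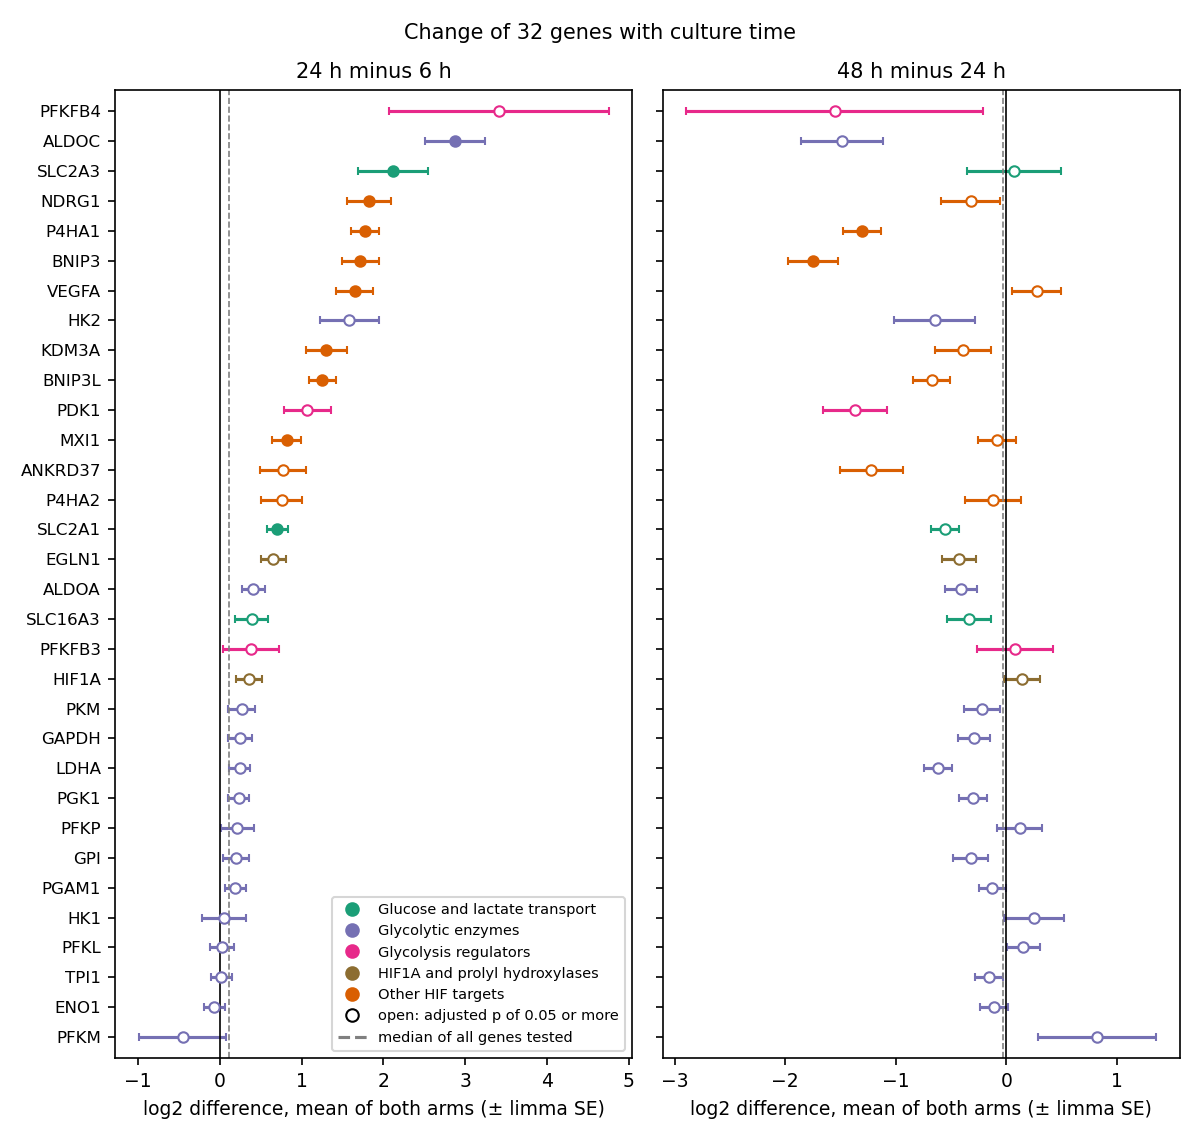
Log2 difference (horizontal axis, point and limma SE, mean of both arms) of the 32 genes between 24 h and 6 h (left) and between 48 h and 24 h (right), with filled points where the adjusted p was under 0.05 and a dashed line at the median of all genes tested. The HIF targets lie between 0.76 and 1.82 on the left, most enzymes lie near 0, and P4HA1 and BNIP3 are the filled points on the right.

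A maximum at 24 h was common to most of these genes. Expression was higher at 24 h than at both 6 and 48 h in both arms for 20 of the 32 genes, beside 17.6% of all genes tested: 6 of 9 HIF targets, 9 of 15 enzymes, 2 of 3 transporters, 2 of 3 regulators and EGLN1. A minimum at 24 h in both arms was seen in 0 of 32, beside 8.16%. In the IL-6 arm alone the maximum held for 20 of 32, beside 32.5% of all genes, and the 3 phosphofructokinase genes PFKL, PFKM and PFKP had their minimum then, beside 26.9%. In the control arm the maximum held for 29 of 32, beside 43.2%, and a minimum for 0, beside 22.6%. HIF1A, VEGFA and ENO1 were the genes without a 24 h maximum in the control arm. The excess of 24 h over the mean of 6 and 48 h, averaged over the arms, had a median of 0.97 in HIF targets, 0.25 in enzymes and 0.07 in all genes tested, and was largest in PFKFB4 (2.48), ALDOC (2.18) and BNIP3 (1.73).

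Within single arms, given without a test, 11 genes were at least 2-fold higher and 1 (PFKM) at least 2-fold lower at 24 h than at 6 h with IL-6, beside 7.08% and 2.61% of all genes tested. In the controls 12 were higher and 0 lower, beside 7.25% and 1.89%. SLC2A3, HK2, PFKFB4, ALDOC, VEGFA, NDRG1, BNIP3, BNIP3L, P4HA1 and KDM3A, 10 genes in all, were at least 2-fold higher in both arms, beside 2.51% of all genes. At 48 h the control arm had 7 genes at least 2-fold below 24 h (HK2, PFKFB4, ALDOC, PDK1, BNIP3, P4HA1 and ANKRD37), beside 3.73% of all genes, and a median of −0.44. The IL-6 arm had 4 (PDK1, BNIP3, P4HA1 and ANKRD37), beside 5.31%, and a median of −0.17. These 4 genes were thus at least 2-fold lower in both arms, beside 1.01% of all genes. At least 2-fold higher at 48 h than at 24 h were 1 gene with IL-6 (PFKM), beside 4.53%, and 0 in the controls, beside 2.5%.

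From 6 to 48 h, the IL-6 arm had 6 genes at least 2-fold higher (SLC2A3, PFKFB4, ALDOC, VEGFA, NDRG1 and KDM3A), beside 8.47% of all genes tested, and 0 lower, beside 4.4%. The control arm had 3 higher (SLC2A3, HK2 and VEGFA), beside 5.93%, and 0 lower, beside 2.12%. SLC2A3 and VEGFA, 2 genes, were higher in both arms, beside 2.34%. Without overlap between the pairs of libraries, 14 genes were higher and 3 lower at 48 h than at 6 h, beside 31.5% and 21.5% of all genes. At 48 h against 24 h 1 gene (HIF1A) was higher without overlap, beside 15.7%, and 19 were lower, beside 22.9%. BNIP3, P4HA1, LDHA and SLC2A1 were among the 19.

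Over the 3 time-matched pairs, SLC2A3 showed the largest difference between IL-6 and control of the 32 genes and was higher with IL-6 at each time. Even so, 0 of the 32 genes passed in either direction. ENO2, which was not tested, was higher with IL-6 by 2.395 at 24 h and by 4.438 at 48 h. It had no control value at 6 h and stood at −2.78 in the control library of 48 h. Levels were recovered only for genes with 6 values, so how low the control values of ENO2 lie is unknown. LRRC23, a gene with 6 values, overlaps ENO2. At 48 h the IL-6 library was above the control library in 31 of the 32 genes. At 6 and 24 h the differences lay on both sides of 0 for enzymes and HIF targets alike. At the adjusted threshold, where 0 of the 32 passed, 0.229% of all genes tested rose and 0.0074% fell. At an unadjusted p under 0.05 by limma, 3 of the 32 were higher and 0 lower, and the share of all genes there is not given. The median of the 32 genes was 0.18, against −0.03 for all genes tested, with 25 positive differences, against 44.0% of all genes. The medians were 0.136 for the 15 enzymes and 0.143 for the 9 HIF targets. Of the 12 monocyte and THP-1 markers 1 rose with IL-6, FCGR1A, an Fc gamma receptor gene with close copies to which reads can be shared, by 0.65 ± 0.10 (limma adjusted p = 0.0343), and 0 fell. Its values were 0.19, 0.27 and 0.51 at 6, 24 and 48 h with IL-6, against −0.47, −0.41 and −0.10 in the controls. CD14, the lipopolysaccharide co-receptor gene, differed by 2.07 ± 0.85 (adjusted p = 0.676) and CEBPA, a myeloid transcription factor gene, by −0.30 ± 0.13 (adjusted p = 0.524). CD14 stood at −0.16, 0.50 and 2.77 with IL-6, against −0.87, −1.24 and −0.99 in the controls, so its widest gap was at 48 h. KRT8, a keratin gene with a level near the level filter, differed by −0.63 ± 0.43 (limma adjusted p = 0.731). The part of these markers in the differences of the module was not tested.

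SLC2A3 was higher with IL-6 by 3.13, 1.14 and 2.39 at 6, 24 and 48 h, and its lowest IL-6 library stood above its highest control library. Over the 3 pairs the difference was 2.22 ± 0.35 (limma SE, 3 pairs), with an adjusted p of 0.0502 just above the threshold. It passed with equal library medians (2.25, adjusted p = 0.0368), on log2(level + 1) (1.61, adjusted p = 0.00783), without the 6 h pair (1.76, adjusted p = 0.00778) and without the 24 h pair (2.76, adjusted p = 0.0124), but not in the other alternatives, such as without the 48 h pair (2.13, adjusted p = 0.165), with the adjusted p over all alternatives between 0.00778 and 0.998. On the arbitrary scale recovered from the deposited values its level was 4.24, 9.23 and 15.0 at 6, 24 and 48 h with IL-6, against 0.484, 4.20 and 2.86 in the controls. SLC2A14, its near-identical neighbour to which reads can be shared, had values of 0.65, −1.71 and −0.31 at 6, 24 and 48 h with IL-6, against 0.07, 1.31 and −0.01 in the controls, so the IL-6 minus control differences of this pair of genes had opposite signs at 24 and 48 h.

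SLC2A1 was also higher with IL-6 at each time, by 0.31, 0.45 and 0.41 at 6, 24 and 48 h, or 0.39 ± 0.10 over the pairs (adjusted p = 0.254). LDHA was higher by 0.20, 0.29 and 0.41, or 0.30 ± 0.10 (adjusted p = 0.407). In both genes the values of the arms overlapped. HK1 was the other gene whose IL-6 libraries all stood above its controls, which held for 2 of the 32 genes in all, beside 3.51% of all genes tested, and 0 had all IL-6 libraries below the controls, beside 5.71%. The difference of HK1 was 0.42 ± 0.22 (adjusted p = 0.626). The sign was positive at the 3 times for 10 genes (SLC2A1, SLC2A3, SLC16A3, HK1, HK2, ALDOA, TPI1, ENO1, LDHA and ANKRD37), beside 12.6% of all genes tested, and negative at the 3 times for PFKL alone, beside 18.2%. HIF1A differed by −0.13, −0.07 and 0.04 (−0.05 ± 0.13, adjusted p = 0.942), PGK1 by −0.02, −0.04 and 0.19 (0.04 ± 0.11, adjusted p = 0.946) and VEGFA by −0.27, 0.42 and 0.73 (0.29 ± 0.18, adjusted p = 0.698). In the last gene the 6 h pair pointed the other way from the later pairs.

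At single time points, where each difference is between 2 libraries and has no test, 1 gene was at least 2-fold higher with IL-6 at 6 h (SLC2A3), beside 3.43% of all genes tested, and 1 at least 2-fold lower (PFKFB4, −1.82), beside 3.45%. At 24 h SLC2A3 alone of the 32 genes was higher, beside 2.77%, and 0 were lower, beside 4.28%. At 48 h 5 were higher, beside 3.52%, and 0 lower, beside 3.27%. The 5 were SLC2A3, PFKFB4 (2.39), PFKM (1.27), ALDOC (1.13) and HK1 (1.03). Of these PFKM has a mean level of 2.10 on the arbitrary scale, PFKFB4 a level of 0.802 in the IL-6 library of 6 h and SLC2A3 one of 0.484 in the control library of 6 h, which are low, and the IL-6 minus control difference of PFKM at 24 h was −0.68. The medians of the 32 genes were −0.02, 0.07 and 0.40 at 6, 24 and 48 h, beside 0.02, −0.07 and −0.04 for all genes tested. At 6 h 15 of 32 differences were positive, beside 52.3% of all genes, at 24 h 20, beside 43.5%, and at 48 h 31, beside 44.8%, with PFKL (−0.01) the exception.

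**Figure D4:**
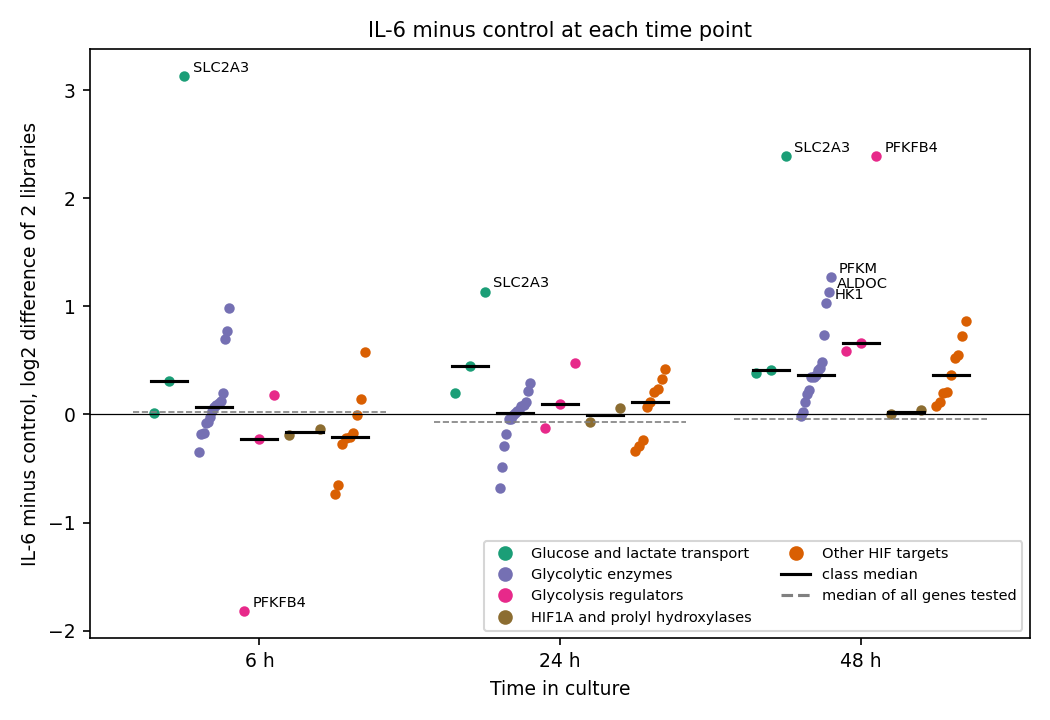
IL-6 minus control (vertical axis, log2 difference of 2 libraries, no error bar) for each of the 32 genes at 6, 24 and 48 h, coloured by role, with bars at class medians and a dashed line at the median of all genes tested. At 48 h all points but that of PFKL, at −0.01, lie above 0; genes at least 2-fold apart are named.

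By class, the HIF targets had medians of −0.21, 0.12 and 0.37 at 6, 24 and 48 h and the enzymes of 0.07, 0.01 and 0.36, so at 48 h the classes lay close together. Of the HIF targets 2 of 9 were higher with IL-6 at 6 h, 6 of 9 at 24 h and 9 of 9 at 48 h, led at 48 h by BNIP3 (0.86) and VEGFA (0.73). Whether the IL-6 difference at 48 h exceeded its mean at 6 and 24 h was tested by limma with 1 residual degree of freedom. At the adjusted threshold 0 of 32 genes passed in either direction, where 0.037% of all genes tested passed higher and 0.0962% lower. At an unadjusted p under 0.05, 7 of the 32 were higher and 0 lower, and the share of all genes there is not given. The estimates were positive for 30 of 32 genes, beside 50.3% of all genes, and were largest in PFKFB4 (3.25 ± 0.78, adjusted p = 0.338) and ALDOC (1.32 ± 0.25, adjusted p = 0.13). With a mean level of at least 10 ALDOC passed. For the IL-6 difference at 6 h against its mean at 24 and 48 h, 0 of 32 passed the adjusted threshold. At that threshold 0.148% of all genes passed higher and 0.0666% lower. At an unadjusted p under 0.05, 1 of the 32 was higher and 2 lower, with no share of all genes given. The largest estimate was that of PFKFB4 (−3.06 ± 1.16), which did not pass. Each set of 32 differences at a time rests on the same pair of libraries.

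Related genes outside the module were examined in the same fit. Of 47 other genes of the HIF pathway and the hypoxia response, 36 were tested. At 24 h against 6 h 7 rose and 0 fell, where 1.66% of all genes tested rose and 0.289% fell. At 48 h against 24 h 2 fell and 0 rose, beside 0.422% and 0.104% of all genes. TMEM45A, a transmembrane protein gene induced by hypoxia, rose by 2.63 ± 0.23 (limma adjusted p = 0.00162), with values of −1.48, 1.35 and 0.59 at 6, 24 and 48 h with IL-6, against −1.34, 1.11 and −0.23 in the controls. PLOD2, a collagen lysyl hydroxylase gene, rose by 2.19 ± 0.36 and fell at 48 h against 24 h (−2.01 ± 0.36, adjusted p = 0.0411), and GBE1, the glycogen branching enzyme gene, rose by 1.30 ± 0.17 and then fell (−1.22 ± 0.17, adjusted p = 0.0232). Their time courses have the shape of P4HA1 and BNIP3, high at 24 h in both arms. The other risers at 24 h were BHLHE40 (2.05), ZNF395 (1.76), CCNG2 (1.63) and NARF (0.81). At 48 h against 6 h 4 rose (TMEM45A, CCNG2, BHLHE40 and STC2), beside 2.55% of all genes, and 0 fell, beside 1.44%. STC2, a secreted glycoprotein gene, rose by 3.46 ± 0.59. With IL-6 0 of the 36 passed; the largest differences were those of STC2 (2.08 ± 0.48), BHLHE40 (1.11 ± 0.26) and SLC7A11 (1.04 ± 0.45). The 36 genes had a median of 0.47 at 24 h against 6 h and of 0.12 between IL-6 and control.

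Of 34 other genes of glycolysis and pyruvate handling, 25 were tested, and 0 passed at 24 h against 6 h or at 48 h against 24 h. SLC2A5, the fructose transporter, rose at 48 h against 6 h by 0.53 ± 0.13 (adjusted p = 0.0459), 1 of the 25, beside 2.55% of all genes. With IL-6 none passed, and the largest differences were those of FBP1, a gluconeogenic phosphatase gene (−0.64 ± 0.15), PDK2 (−0.57 ± 0.15) and PGD, of the pentose phosphate pathway (0.31 ± 0.11). Their median was 0.12 at 24 h against 6 h, close to that of all genes tested, and −0.02 between IL-6 and control.

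Reads can be shared between some of these genes and others. The libraries do not mark the strand, and 16 of the 35 members are overlapped by another gene with 6 values, 10 of them on the opposite strand, such as PFKM by SENP1, ANKRD37 by UFSP2 and PDK1 by an unnamed gene. There are 16 members with pseudogenes that carry their name, 149 in all, of which 65 belong to GAPDH and 39 to BNIP3, and 18 of the 149 had 6 values. How the authors assigned reads that match several genes is not given in the sources used here, so the values of these members are uncertain to that extent.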

How the data were processed

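Total RNA of THP-1 cells, in 6 samples, was amplified with a SMART-seq v4 low-input kit, made into Nextera XT libraries and sequenced on a NovaSeq instrument, per the labels' protocols. The genome build was GRCh38 (hg38), per the submitters' processing notes. For the aligner, the counting step and the scaling, the answer is not given in the sources used here. The authors deposited 1 log2 value per gene and library, centred per gene: the mean over libraries is within 1.8e-07 of 0. Depth is unknown, and no counting error or detection limit can be given.

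A level in an arbitrary unit (smallest step 0.001) was recovered for 90.4% of 17388 genes with 6 values, because the ratios between libraries were those of whole numbers after 1 offset per library. Levels are printed only for genes whose mean level was under 40.8, the lowest at which decoy genes matched by accident. Higher recovered levels still entered the level filters, the variance trend and the log2(level + 1) alternative. Genes without a level were treated as high in the filters and the trend and were left out of that alternative. The test took 13511 genes, those whose mean level reached 1 and 1673 without a level.

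The deposited log2 values were fitted with limma 3.58.1 (R 4.3.3) on time and agent over 6 libraries, with 2 residual and a median of 8.11 prior degrees of freedom, robust empirical Bayes and a variance trend on level. P-values were adjusted by Benjamini-Hochberg over all genes, with a threshold of 0.05. Limma's SE rests on shrunken variances. Whether the IL-6 difference changed with time was fitted with 1 residual degree of freedom. Single time points and arms were compared by 2-fold differences without a test. Alternatives were level filters, equal medians, log2(level + 1), no variance trend, non-robust shrinkage, a 1.5-fold limit, leaving out a time pair or, chosen after seeing the data, a library.

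The members and gene lists were chosen with earlier results of these data known, so their patterns are not independent support. Values in every library are given for members past a threshold, past 2-fold between arms or in both arms between times, and for HIF1A, SLC2A1, LDHA, PGK1 and VEGFA. In the other lists, genes past the threshold and the 3 with the largest IL-6 difference are named. One further marker list is not reported here.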

Additional observations from a re-analysis of the deposited data

How the results depend on the processing

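The number of members higher with IL-6 over the pairs was 0, and 1 (SLC2A3) with equal medians, with log2(level + 1), without the 6 h pair and without the 24 h pair. PGK1 changed sign without the 48 h pair, to −0.033. With log2(level + 1), and likewise with a mean level of at least 10, 24 members were tested, fewer than in the main fit. A lower count in these alternatives can therefore mean that a gene was not tested. BNIP3, which fell at 48 h against 24 h in the main fit, was not tested with log2(level + 1). At 24 h against 6 h 10 members rose, 5 with equal medians, 0 with no variance trend, and 1 to 13 with 1 library left out. At 48 h against 24 h 2 fell, 0 with no level filter, no variance trend or non-robust shrinkage, 1 with log2(level + 1), and 0 to 4 with 1 library left out. At 48 h against 6 h 4 rose, 2 with no level filter or non-robust shrinkage, 0 with no variance trend, and 1 to 7 with 1 library left out. For the change of the IL-6 difference with time, 1 member was lower at 6 h with non-robust shrinkage (PFKFB4) and 1 higher at 48 h with a mean level of at least 10 (ALDOC). With a 1.5-fold limit, members apart between IL-6 and control in either direction numbered 7, 2 and 10 at 6, 24 and 48 h. Within arms they numbered 8 (IL-6, 48 h against 24 h), 14 (IL-6, 48 h against 6 h), 12 (control, 48 h against 24 h) and 7 (control, 48 h against 6 h). The share of all genes at this limit is not given here, so these counts cannot be set against a background. The median of HIF targets minus that of enzymes was 1.44 at 24 h against 6 h with a mean level of at least 10; at 48 h against 24 h it ran from −0.41 to −0.009 with 1 library left out; at 48 h against 6 h it was 0.73 with a mean level of at least 10, 0.48 with log2(level + 1), and 0.53 to 0.72 with 1 library left out. How many of all genes passed in each setting is not given here, and the causes of these changes were not tested. The other 140 values for counts and class medians stayed within 1.5 times or within their spread, and of those for single members 164 kept their side of the threshold, 73 lost a call and 4 gained one. Where a library is left out, its time point rests on 1 library that is assumed to vary like the others. The labels give no replicate numbers, and the pairing of IL-6 with control is by time point. Without this time block 0 members passed between IL-6 and control. With unknown depth and 1 library per condition, a gene that missed the threshold is not shown to be unchanged.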
